A study of Mus musculus with 9 samples.

Results

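The genes described here are 100 protein-coding mouse genes whose transcripts were almost absent from neutrophils kept alone and were counted in neutrophils recovered from co-culture with PyMT-N cells, at a level at least 10 times that with PyMT-M cells. They were chosen from a table of 54532 genes on mean CPM, read counts scaled to the library total. The criteria were a mean under 1 CPM alone, at least 20 CPM with PyMT-N cells and a PyMT-N mean at least 10 times the PyMT-M mean. These criteria were met by 122 genes, and 22 were left out by symbol, among them keratins, claudins, laminins, integrins, interleukin 1 and CXC chemokine genes, matrix metalloproteinases and serpins. The levels of the 100 genes in all 3 groups therefore chose them, and their levels are given as a description, with no test. With PyMT-M and PyMT-N exchanged in the criteria and the same symbols left out, 54 genes remained, to be set against the 100.

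Bulk RNA sequencing was done on neutrophils taken from bone marrow of C57/B6 mice of wild type genotype, after 12 h in 0.5% fetal bovine serum (FBS). There were 3 groups of 3 libraries: neutrophils sorted by FACS after co-culture with PyMT-N cells, neutrophils sorted by FACS after co-culture with PyMT-M cells, and neutrophils cultured alone. PyMT is the polyoma virus middle T antigen, used as a transgene in a common mouse model of mammary carcinoma. What N and M stand for was not given in the sources used here. DMEM is named as the medium in the labels of the co-cultures only, and no label says whether neutrophils cultured alone were sorted too, so sorting and co-culture cannot be told apart in a comparison with them. The library names carry a number that each replicate shares across the groups. The sources used here do not say what it stands for, and the main tests did not pair libraries by it. No source used here ties a library to an animal, so any p-value below measures the spread between these libraries, which may be in part technical. Each library was made from 150 pg of RNA.

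Several of the genes belong to families that build or serve epithelial sheets, and others act in signalling, transport or metabolism of many cell types. Desmosomes and tight junctions hold epithelial cells to each other, and the transcription factors GRHL2 and ELF3 and the splicing regulator ESRP1 are widely used as markers of epithelial identity. Epidermal growth factor (EGF) family ligands, Wnt proteins and the cytokine TSLP are made by many epithelia and act on receptors of nearby cells. Neutrophils are mobile white blood cells that build neither desmosomes nor tight junctions.

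Library totals were 3507969 to 4524563 counts with PyMT-N cells, 3269332 to 4307585 with PyMT-M cells and 1641049 to 3180382 alone. Alone replicate 3 was the shallowest library, and 92 of the 100 genes had 0 counts in it, against 61 and 65 in alone replicates 1 and 2. A count of 0 over a group allows up to 3 counts, which is 0.259 CPM with PyMT-N or PyMT-M cells and 0.399 CPM alone. This floor and the count intervals below cover counting error only.

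The 100 genes together held 6000, 7409 and 7278 CPM in the PyMT-N libraries, or 0.600%, 0.741% and 0.728% of all counts. They held 58.9, 74.1 and 66.1 CPM in the PyMT-M libraries and 27.8, 26.7 and 6.09 CPM in the libraries kept alone. In counts these were 80232 with PyMT-N cells, 771 with PyMT-M cells and 170 alone. Every PyMT-N library lay above every other library for 100 of 100 genes, which the criteria nearly force. Of the 771 counts with PyMT-M cells, Hbegf held 89, Pard6b 87, Slco2a1 and Gprc5a 60 each, Entpd3 47 and Lipg 41. The PyMT-M mean was above the alone mean for 49 genes and below it for 33, where the criteria cap the alone mean. In bulk samples, fewer cells of a type and less RNA per cell cannot be told apart.

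**Figure D1:**
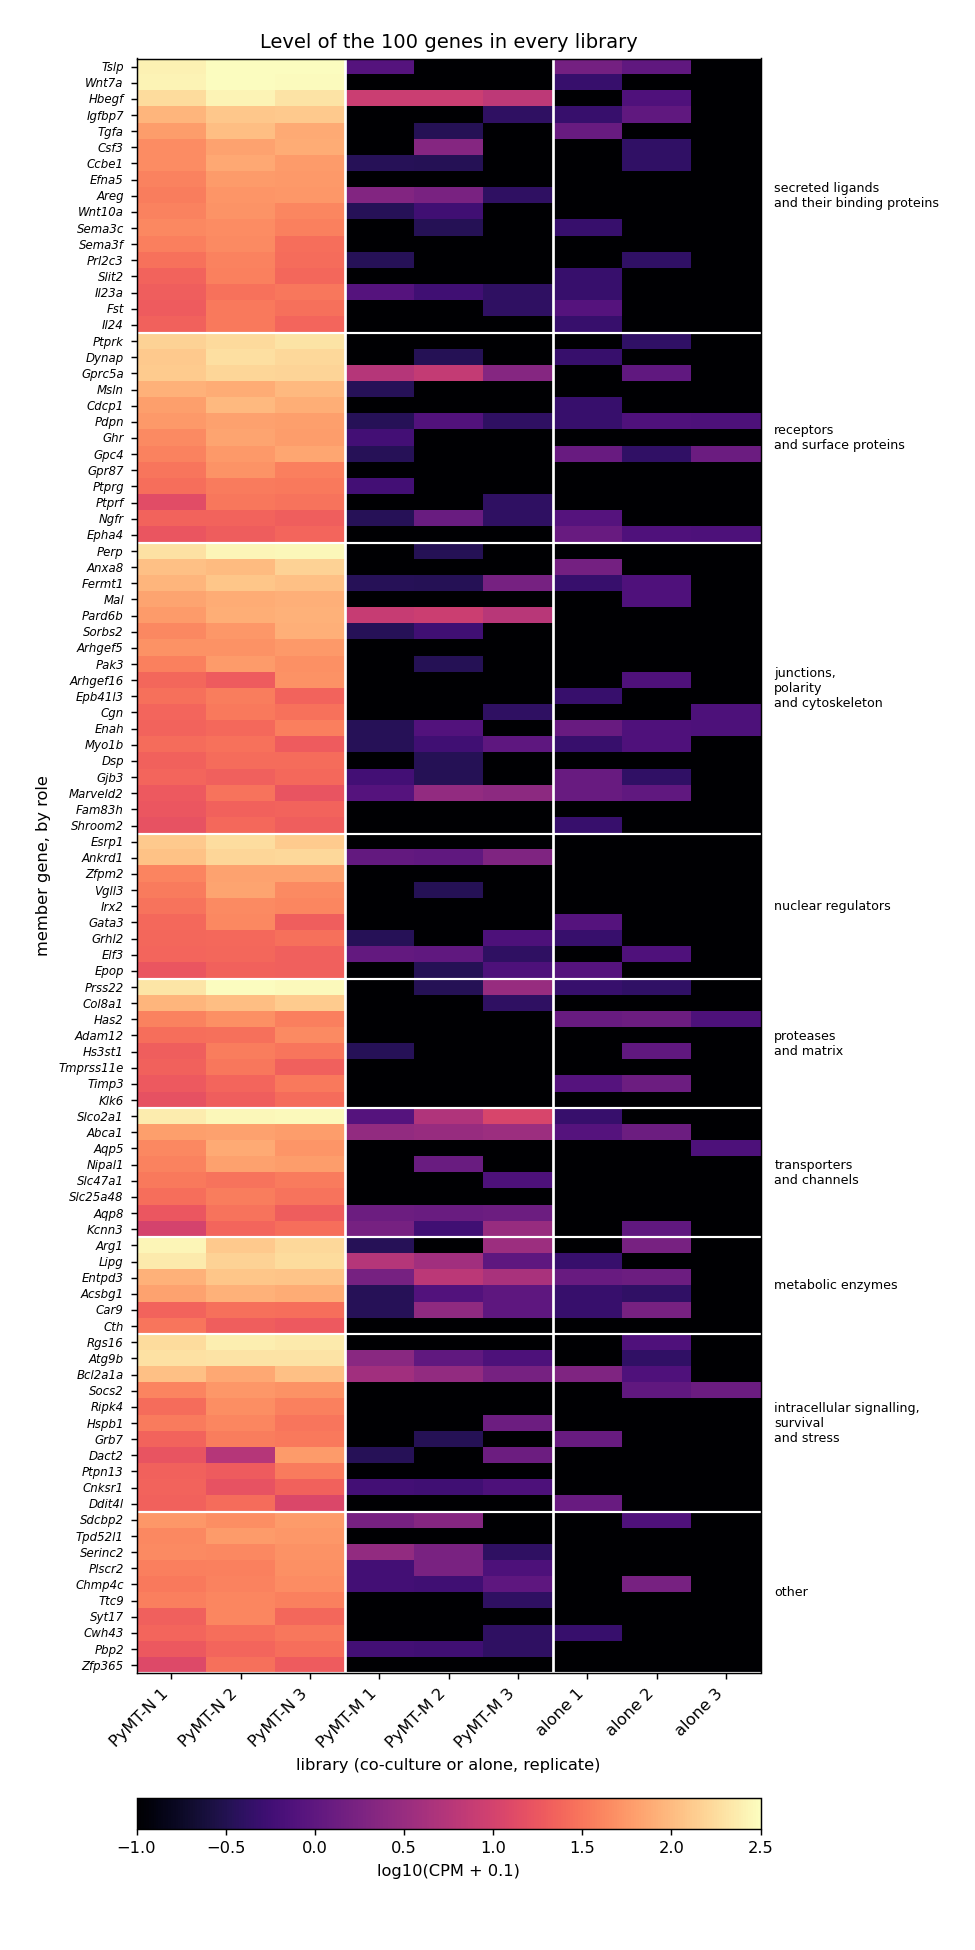
Level of each of the 100 genes in each of the 9 libraries, as log10(CPM + 0.1), with genes grouped by role and libraries by co-culture with PyMT-N cells, co-culture with PyMT-M cells or culture alone. The PyMT-N columns are bright throughout, a few genes such as Hbegf, Pard6b and Gprc5a keep a weaker signal with PyMT-M cells, and most squares of alone replicate 3 are at 0 counts.

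The defining markers of the labelled cells were present in every library. Of 12 neutrophil markers, all were detected in all 3 groups, and their sum was 16036 to 19068 CPM with PyMT-N cells, 17252 to 21760 with PyMT-M cells and 25375 to 37200 alone. Single markers differed in order. Camp, the antimicrobial peptide cathelicidin, had mean levels of 10.3 CPM with PyMT-N cells, 648 with PyMT-M cells and 346 alone, and Ngp, another granule protein, had 66.8, 1034 and 1025 CPM in these groups. Retnlg had 43.9 CPM with PyMT-N cells, 460 with PyMT-M cells and 750.0 alone, whereas Mmp9, the gelatinase of neutrophil granules, had 3003 CPM with PyMT-N cells, 1174 with PyMT-M cells and 2893 alone. Epithelial markers that were not themselves among the 100 genes were also summed. Of 13 such markers, 12 were detected with PyMT-N cells, 9 with PyMT-M cells and 8 alone. Their sum was 2129 to 3024 CPM with PyMT-N cells, 74.7 to 106 CPM with PyMT-M cells and 4.87 to 18.6 CPM alone. Epcam, Krt18, Krt19, Cldn4, Cldn7 and F11r met the same criteria and were left out only by symbol. The criteria therefore fixed their high level with PyMT-N cells. Cdh1 had means of 232 CPM with PyMT-N cells, 0.667 with PyMT-M cells and 8.09 alone. Krt5, a keratin of basal cells, was at 0 in all 9 libraries. Krt14, Cldn3 and Cldn4 were at 0 in all PyMT-M libraries as well, while Krt8, a keratin of simple epithelia, had 384 CPM with PyMT-N cells and 51.2 CPM with PyMT-M cells. The 3 other epithelial markers fixed for this check, Esrp1, Grhl2 and Elf3, were among the 100 genes. Epithelial markers overlap in part with the genes left out by symbol, and the part of epithelial RNA in the results below was not tested.

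Markers of other cell types did not follow the same order. The 16 mesenchymal markers summed to 1468 to 1774 CPM with PyMT-N cells, 3645 to 4649 with PyMT-M cells and 1251 to 1406 alone. Of these, 4 were at 0 in all PyMT-N libraries, 5 in all PyMT-M libraries and 5 in all alone libraries. Fn1, the gene of fibronectin, held 898 CPM of the PyMT-N mean, while Col3a1, a fibrillar collagen, was at 0 with PyMT-N cells and at 273 CPM with PyMT-M cells. Vim had means of 500 CPM with PyMT-N cells, 3188 with PyMT-M cells and 1150 alone, and made up most of the latter 2 sums. Single markers went different ways between the co-cultures. Sparc had 69.4 CPM with PyMT-N cells and 435 with PyMT-M cells, Cdh2 had 19.4 and 0, and Twist1 had 19.5 and 18.4. The 8 monocyte and macrophage markers summed to 609 to 762 CPM with PyMT-N cells, 492 to 748 with PyMT-M cells and 818 to 1125 alone, with 1 marker at 0 alone. The 8 endothelial markers summed to 14.8 to 36.0 CPM with PyMT-N cells, 6.99 to 17.1 with PyMT-M cells and 10.1 to 107 alone. In that order of groups, 4, 3 and 4 markers were at 0. Pecam1 made up all of the 107 CPM in alone replicate 3 and 22.5 CPM of the PyMT-N mean. Kdr had means of 0.807 CPM with PyMT-N cells, 7.06 with PyMT-M cells and 0.685 alone.

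Secreted ligands and their binding proteins were 17 of the 100 genes and held the largest sum of any role, 1241, 1742 and 1519 CPM with PyMT-N cells. Tslp, an epithelial cytokine that acts on dendritic cells and lymphocytes (chr18:32815383-32819797), had 254, 335 and 321 CPM with PyMT-N cells, 0.749, 0 and 0 with PyMT-M cells and 1.48, 0.943 and 0 alone. Wnt7a, a Wnt ligand (chr6:91363981-91411363), had 265, 341 and 303 CPM with PyMT-N cells, 0 in all PyMT-M libraries and 0.371, 0 and 0 alone. All coordinates are those of GENCODE M21 on GRCm38. Both ligands were far above the libraries of the other groups in each PyMT-N library and lowest in PyMT-N replicate 1. Against PyMT-M co-culture, the pooled CPM of Wnt7a was at least 1169-fold higher, set against the floor of 3 counts over the group.

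Ligands of the EGF receptor were represented by Hbegf, Tgfa and Areg. Hbegf (chr18:36504927-36515805), whose product is released from the cell surface by proteases, had 174, 268 and 202 CPM with PyMT-N cells, 8.24, 8.13 and 6.42 with PyMT-M cells and 0, 0.629 and 0 alone. The 3 groups of Hbegf did not overlap, which the criteria favour, so nothing is read from it. Tgfa had 60.8, 108 and 75.4 CPM with PyMT-N cells, 0, 0.232 and 0 with PyMT-M cells and 1.11, 0 and 0 alone. Areg had 35.8, 53.9 and 55.5 CPM with PyMT-N cells, 2.00, 1.63 and 0.306 with PyMT-M cells and 0 in all libraries alone. The PyMT-M level of Areg was above 1 CPM in 2 of 3 libraries, whereas Tgfa had 1 count over that group.

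Cytokines and guidance cues made up most of the other ligands. Csf3, the gene of granulocyte colony-stimulating factor, the growth factor of the neutrophil lineage, had 45, 66.7 and 76.9 CPM with PyMT-N cells, 0, 2.09 and 0 with PyMT-M cells and 0, 0.314 and 0 alone. All 9 counts of Csf3 in PyMT-M co-culture came from replicate 2. Il23a, which encodes the p19 subunit of interleukin 23, averaged 27.4 ± 6.15 CPM with PyMT-N cells (SD, n = 3), and Il24, a cytokine of the interleukin 10 family, averaged 26.4 ± 6.32 CPM. Wnt10a averaged 44.1 ± 6.95 CPM with PyMT-N cells, with 3 counts over the PyMT-M libraries and 0 alone. The semaphorins Sema3c and Sema3f averaged 42.2 ± 4.09 and 35.9 ± 8.39 CPM, Slit2, a ligand of Robo receptors, 28.3 ± 8.38 CPM, and Efna5, a membrane-anchored ligand of Eph receptors, 51.1 ± 10.8 CPM. Sema3f and Efna5 had 0 counts in all 6 other libraries. Igfbp7, a secreted protein that binds insulin-like growth factors (114 ± 20.6 CPM), and Fst, the activin-binding protein follistatin (27.2 ± 7.03 CPM), had 1 count each over the PyMT-M libraries.

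Receptors and surface proteins were 13 genes with sums of 815, 1051 and 1045 CPM with PyMT-N cells. Ptprk, a receptor-type tyrosine phosphatase that acts on junction proteins (chr10:28074820-28597397), had 151, 172 and 203 CPM with PyMT-N cells, 0 in all PyMT-M libraries and 0, 0.314 and 0 alone. Its relatives Ptprg and Ptprf averaged 31.9 ± 3.75 and 25.4 ± 10.1 CPM with PyMT-N cells. Gprc5a, an orphan G protein-coupled receptor induced by retinoic acid (chr6:135065651-135084709), had 135, 161 and 156 CPM with PyMT-N cells, 5.49, 7.20 and 2.14 with PyMT-M cells and 0, 0.943 and 0 alone. All 3 groups of Gprc5a were separate, which the criteria favour. Dynap (162 ± 30.7 CPM), Msln, the surface glycoprotein mesothelin (87.3 ± 9.52 CPM), and Cdcp1, a substrate of Src kinases (80.8 ± 17.9 CPM), had at most 1 count over either of the other groups. Also in this class were Pdpn, podoplanin, at 61.8 ± 3.99 CPM, Ghr, the growth hormone receptor, at 58.1 ± 12.7 CPM, and Ngfr, the low-affinity nerve growth factor receptor, at 22.1 ± 1.39 CPM.

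Junction, polarity and cytoskeleton genes were the largest class, 18 genes with sums of 876, 1088 and 1172 CPM with PyMT-N cells. Perp, a membrane protein of desmosomes (chr10:18845020-18857073), had 194, 275 and 285 CPM with PyMT-N cells, 0, 0.232 and 0 with PyMT-M cells and 0 in all libraries alone. Dsp, desmoplakin, which ties desmosomes to keratin filaments, had 21.7, 26.8 and 26.5 CPM with PyMT-N cells, 0, 0.232 and 0 with PyMT-M cells and 0 alone. The tight-junction genes Cgn, cingulin, and Marveld2, tricellulin, averaged 28.8 ± 5 and 21.8 ± 7.39 CPM with PyMT-N cells. Of these 4 genes, only Marveld2 reached 1 CPM in any PyMT-M library, with 0.749, 2.79 and 2.45 CPM there. Pard6b, a polarity protein of the apical membrane, had 57.7, 80.1 and 84.4 CPM with PyMT-N cells, 7.74, 8.59 and 5.81 with PyMT-M cells and 0 alone. Fermt1, kindlin-1, an activator of integrins in epithelia, averaged 107 ± 16.0 CPM with PyMT-N cells. Anxa8, an annexin, averaged 121 ± 27.5 CPM, and Mal, a proteolipid of apical sorting, averaged 76.8 ± 7.27 CPM. Neither Anxa8 nor Mal had a count with PyMT-M cells.

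Nuclear regulators were 9 genes with sums of 437 to 635 CPM with PyMT-N cells. Esrp1, which drives epithelial splicing patterns (chr4:11331933-11386783), had 128, 183 and 135 CPM with PyMT-N cells and 0 in all 6 other libraries. Grhl2 had 24.2, 24.8 and 28.1 CPM with PyMT-N cells, 0.250, 0 and 0.612 with PyMT-M cells and 0.371, 0 and 0 alone. Elf3, an ETS factor of epithelia, had 23.4, 24.2 and 21.4 CPM with PyMT-N cells, 0.999, 0.929 and 0.306 with PyMT-M cells and 0, 0.629 and 0 alone. Esrp1 thus had no count outside PyMT-N co-culture, while Grhl2 and Elf3 had 1 to 9 counts in each of the other groups. Gata3, a factor of the mammary luminal lineage and of T cells, had 24.8, 42.5 and 21 CPM with PyMT-N cells, 0 with PyMT-M cells and 2 counts alone. Zfpm2 (57.3 ± 14.8 CPM) and Irx2 (38.7 ± 7.43 CPM) were also at 0 in all other libraries. Ankrd1, a widely used target gene of the Hippo pathway (chr19:36111961-36120099), had 115, 160 and 166 CPM with PyMT-N cells, 0.999, 0.929 and 1.84 with PyMT-M cells and 0 alone, and Vgll3, a cofactor of the TEAD factors of that pathway, averaged 48.5 ± 17.5 CPM with PyMT-N cells.

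Proteases and matrix genes (8 genes) were led by Prss22, a serine protease of the tryptase family (chr17:23993534-23998100), with 208, 308 and 296 CPM with PyMT-N cells, 0, 0.232 and 3.06 with PyMT-M cells and 0.371, 0.314 and 0 alone. In PyMT-M co-culture 10 of its 11 counts came from replicate 3. Col8a1, a short-chain collagen, averaged 111 ± 22.3 CPM with PyMT-N cells, with 1 count over the PyMT-M libraries and 0 alone. Has2, which makes hyaluronan, had 39.4, 49.0 and 36.5 CPM with PyMT-N cells, 0 with PyMT-M cells and 1.11, 1.26 and 0.609 alone. Tmprss11e, Klk6 and Adam12, all proteases, averaged 25.3 ± 6, 21 ± 5.27 and 33.4 ± 9.36 CPM with PyMT-N cells, and all 3 were at 0 in the 6 other libraries. The reads of Timp3, an inhibitor of metalloproteinases (24.9 ± 7.34 CPM), are uncertain, because 1733 of its 8144 exon bases lie across from exons of Syn3.

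Transporters and channels (8 genes) were led by Slco2a1, the prostaglandin transporter (chr9:102988712-103096002), with 232, 282 and 289 CPM with PyMT-N cells, 0.749, 4.88 and 11 with PyMT-M cells and 0.371, 0 and 0 alone. Its PyMT-M libraries differed widely from each other, with 3, 21 and 36 counts. Abca1, which exports cholesterol, had 61.7, 65.0 and 59.7 CPM with PyMT-N cells, 2.75, 3.02 and 3.36 with PyMT-M cells and 0.741, 1.26 and 0 alone. The water channels Aqp5 and Aqp8 averaged 56.9 ± 16.8 and 22.6 ± 6.53 CPM with PyMT-N cells. Aqp5, a channel of secretory epithelia, had 0 counts with PyMT-M cells, whereas Aqp8 had 1.25, 1.16 and 1.22 CPM.

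Metabolic enzymes (6 genes) were the only class whose sum was highest in PyMT-N replicate 1, at 711, 531 and 586 CPM. Arg1, arginase 1, which splits arginine into ornithine and urea and is a familiar marker of some macrophages (chr10:24915221-24927484), had 275, 127 and 168 CPM with PyMT-N cells, 0.250, 0 and 3.36 with PyMT-M cells and 0, 1.57 and 0 alone. Lipg, endothelial lipase (chr18:74939322-74961263), had 229, 150 and 178 CPM with PyMT-N cells, 5.49, 3.71 and 0.918 with PyMT-M cells and 0.371, 0 and 0 alone. Arg1 and Lipg were both highest in PyMT-N replicate 1, unlike Tslp, Wnt7a and Perp. The order of the class sum follows these 2 genes, the highest of the class. Of the 6 enzymes, 3 were lowest in replicate 1, among them Entpd3 and Acsbg1. Entpd3, an enzyme that hydrolyses extracellular nucleotides, averaged 107 ± 18.6 CPM with PyMT-N cells and had 1.5, 6.27 and 4.28 CPM with PyMT-M cells. Acsbg1, an acyl-CoA synthetase, averaged 77.4 ± 9.47 CPM with PyMT-N cells. Car9, carbonic anhydrase 9, known as a target of hypoxia signalling, had 23.1, 28.5 and 27.4 CPM with PyMT-N cells, 0.250, 2.55 and 0.918 with PyMT-M cells and 0.371, 1.57 and 0 alone.

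Intracellular signalling, survival and stress genes were 11, with sums of 689, 764 and 817 CPM with PyMT-N cells. Rgs16, which shortens G protein signals (chr1:153740349-153745468), had 176, 245 and 227 CPM with PyMT-N cells, 0 with PyMT-M cells and 0, 0.629 and 0 alone. Atg9b, a paralog of the autophagy protein ATG9A (chr5:24384181-24392143), had 195, 200 and 203 CPM with PyMT-N cells, 2.25, 0.929 and 0.612 with PyMT-M cells and 0, 0.314 and 0 alone, and 294 of its exon bases lie across from exons of Nos3. Bcl2a1a, an anti-apoptotic member of the Bcl2 family, had 111, 73.0 and 111 CPM with PyMT-N cells, 3.75, 2.79 and 1.53 with PyMT-M cells and 1.85, 0.629 and 0 alone. Bcl2a1a has near-identical copies in the mouse genome, so its share of their reads is uncertain. Socs2, an inhibitor of cytokine signalling, and Ripk4, a kinase of keratinocyte differentiation, averaged 48.0 ± 7.18 and 37.5 ± 10.2 CPM with PyMT-N cells and were at 0 with PyMT-M cells.

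**Figure D2:**
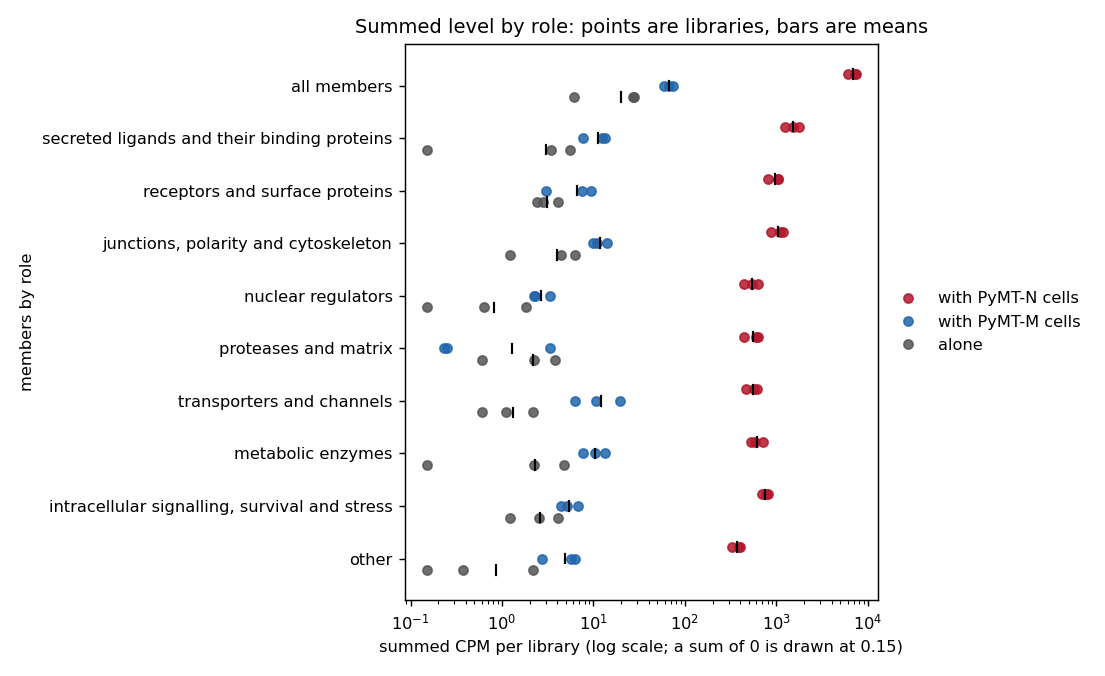
Summed CPM of all 100 genes and of each role in each library, on a log scale, where each point is a library (n = 3 per group) and each bar the mean. Every PyMT-N point lies to the right of every point of the other groups, and the PyMT-M and alone points overlap for receptors and for proteases and matrix.

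Levels are comparable between genes only per length. Divided by exon length, Tslp was highest at 228 CPM per kb with PyMT-N cells, followed by Prss22 at 204, Dynap at 132, Perp at 129 and Bcl2a1a at 120 CPM per kb. Wnt7a, level with Tslp on the CPM scale, had 95.5 CPM per kb. The order by CPM per kb and the order by CPM had a Spearman rank correlation of 0.68 over the 100 genes, a description across genes that share the same libraries. Exon lengths ran from 819 to 27851 bases and cover all annotated exons of a gene, so the per-length level of a gene with long alternative exons, such as Slco2a1 at 19.8 CPM per kb, is a low estimate.

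By mean CPM with PyMT-N cells, the 100 genes ran from 20.1 to 303 with a median of 40.3. Of them 20 had at least 100 CPM and 36 had under 30 CPM. The 10 highest held 34.8% of the summed CPM and the 25 highest 60.5%. The smallest count of any of the genes in a PyMT-N library was 19. The genes lay on 20 chromosomes, with at most 11 on a single chromosome (5), and no 2 of them were neighbours among the protein-coding genes. Exons of 21 genes overlapped exons of another annotated gene, nearly always on the other strand, and the strand setting of the counting was not given in the sources used here.

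Genes on either side of each criterion had similar values. Just under 1 CPM alone were Has2 at 0.993, Gpc4 at 0.882 and Bcl2a1a at 0.827 CPM, and just over it were Cxadr at 1.02, Ahr at 1.02 and Fbln2 at 1.04 CPM. Just over 20 CPM with PyMT-N cells were Zfp365 at 20.1, Epha4 at 20.2 and Epop at 20.2 CPM, and just under it were Etl4 at 19.9, Atp9a at 19.8 and Vegfc at 19.8 CPM. Just over a PyMT-N mean 10 times the PyMT-M mean were Pard6b at 10.04, Marveld2 at 10.9 and Kcnn3 at 12.2 times, and just under it were Styk1 at 9.96, Tm4sf1 at 9.87 and Wfdc2 at 9.41 times. Fbln2, at 479 CPM with PyMT-N cells, and Tm4sf1, at 423 CPM, were thus left out although their PyMT-N levels exceeded those of every member.

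Promoter sequence from RefSeq (GRCm38.p6, 250 bases before to 50 after a gene's listed start) was at hand for 65 of the 100 genes. A comparison of motif shares over the set is therefore void, since fewer than 80% of the genes have a value. The 10 highest eligible genes with such a sequence were searched on both strands for TEAD (CATTCC), AP-1 (TGANTCA), GRHL (AACCNGTT), NF-kB (GGGA, any 2 bases, TTCC), ISRE (GAAA, any 2 bases, GAAA), CEBP (TTGCNNAA) and TATA box (TATAAA) letters. Of these 10 genes, 3 held a match, and all 3 are shown, 2 with TEAD letters and 1 with TATA letters. Capitals mark the matches, and each sequence runs 5′ to 3′ on the strand of the gene.
Ankrd1: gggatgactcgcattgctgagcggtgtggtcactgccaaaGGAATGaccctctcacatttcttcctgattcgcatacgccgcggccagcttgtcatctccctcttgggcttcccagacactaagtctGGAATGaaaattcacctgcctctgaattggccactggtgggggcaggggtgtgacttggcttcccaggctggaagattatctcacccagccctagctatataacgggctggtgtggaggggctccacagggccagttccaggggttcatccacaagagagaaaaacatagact
Ptprk: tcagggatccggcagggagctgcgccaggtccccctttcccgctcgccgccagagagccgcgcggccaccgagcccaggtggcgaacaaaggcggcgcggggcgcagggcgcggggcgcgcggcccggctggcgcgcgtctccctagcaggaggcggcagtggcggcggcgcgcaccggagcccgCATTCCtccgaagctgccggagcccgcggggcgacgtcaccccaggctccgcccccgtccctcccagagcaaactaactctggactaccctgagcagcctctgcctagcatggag
Slco2a1: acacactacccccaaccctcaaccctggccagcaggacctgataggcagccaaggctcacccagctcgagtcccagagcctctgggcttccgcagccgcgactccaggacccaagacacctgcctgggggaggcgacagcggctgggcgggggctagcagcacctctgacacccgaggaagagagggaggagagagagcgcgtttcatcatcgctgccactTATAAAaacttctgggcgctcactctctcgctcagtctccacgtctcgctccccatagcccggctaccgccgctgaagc
Ankrd1 (chr19:36119795-36120094, minus strand) held the TEAD letters in reverse orientation at -210 to -205 and at -123 to -118 from its start. Ptprk (chr10:28074570-28074869, plus strand) held them at -65 to -60, and Slco2a1 (chr9:103008237-103008536, plus strand) held TATAAA at -29 to -24. Of 16522 protein-coding promoters in the same table, 13.2% held the TEAD letters and 12.9% the TATA letters on either strand. A match describes letters in this window and shows no binding.

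The 3 PyMT-N libraries differed in a pattern that many of the genes shared and that was not used to choose them. PyMT-N replicate 1 was the lowest of the 3 libraries for 72 of the 100 genes, or 72%, against 43.9% of 6205 other genes of at least 20 CPM with PyMT-N cells, which were not matched for level. It was the highest for 5 genes, Arg1, Lipg, Cth, Ngfr and Cnksr1, against 27.4% of the other genes. The coefficient of variation over the 3 libraries had a median of 20.1% for the 100 genes and 14.2% for the 6205 other genes. By role, replicate 1 was lowest for 14 of 17 ligands, 11 of 13 receptors and surface proteins and 12 of 18 junction, polarity and cytoskeleton genes. It was lowest for 3 of 6 metabolic enzymes and 5 of 11 intracellular signalling, survival and stress genes. The summed epithelial markers were also lowest in replicate 1 (2129, 3024 and 2668 CPM), and the summed neutrophil markers were highest in it (19068, 16036 and 17631 CPM), as were the monocyte and macrophage markers (762, 609 and 687 CPM). Their part in the pattern was not tested.

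Taking each gene as a share of the summed CPM of the 100 genes left a smaller spread. The median coefficient of variation of the shares was 14.4%, and it was smaller than that of the CPM for 77 of the 100 genes. Dividing by a sum over the same genes takes out any shift they share, so a smaller spread was favoured in advance. The genes left out by symbol kept a nearly fixed ratio to the 100 genes with PyMT-N cells, with a summed CPM of the 100 genes over that of the 22 genes of 1.34, 1.32 and 1.31. This ratio was 0.529, 0.503 and 0.593 with PyMT-M cells and 3.95, 3.54 and 2.5 alone, where the sums rest on 170 counts for the 100 genes and 47 counts for the 22 genes.

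Single genes differed in how much they varied. Dact2, a modulator of Wnt and TGF-beta signalling, had 16.3, 5.42 and 57.7 CPM with PyMT-N cells, a coefficient of variation of 104%. Arhgef16 had 24.5, 19.1 and 49.5 CPM (52.3%), and Kcnn3, a calcium-activated potassium channel, had 10.4, 23.7 and 27.4 CPM (43.6%). All 3 were highest in replicate 3, and Kcnn3 was lowest in replicate 1, as most of the genes were. The steadiest genes were Atg9b, at 195, 200 and 203 CPM (1.92%), Abca1 (4.33%) and Ttc9, a tetratricopeptide repeat protein, at 36.9, 40.8 and 37.4 CPM (5.53%).

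**Figure D3:**
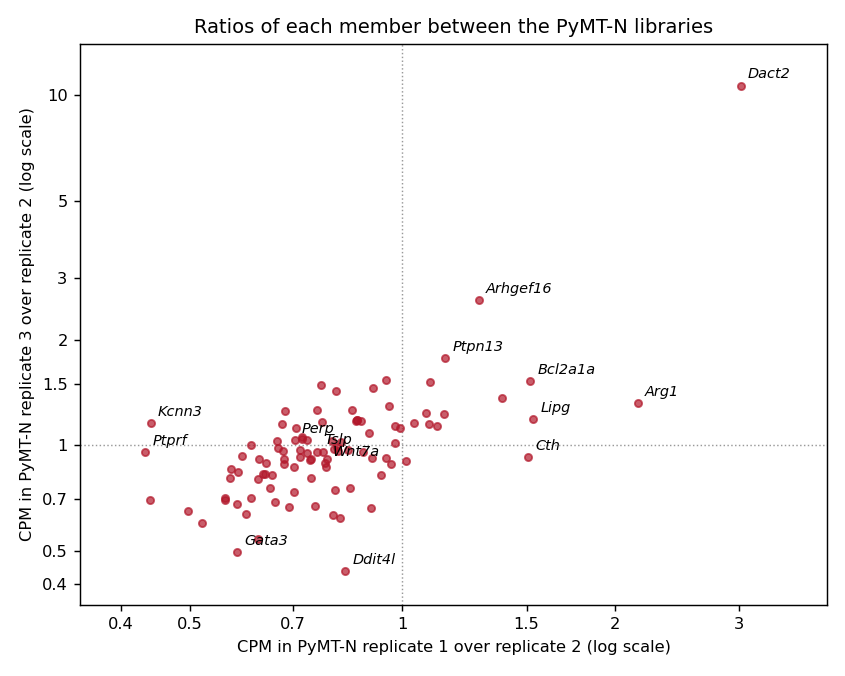
Ratio of CPM in PyMT-N replicate 1 over replicate 2 (horizontal) and replicate 3 over replicate 2 (vertical) for each of the 100 genes, both on log scales, with a dotted line at 1. Most points lie left of 1 (median 0.769), 15 genes lie right of it, among them Arg1 at 2.16, and Dact2 stands alone at 3.01 and 10.7. The labelled genes were picked after their values were seen.

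The PyMT-M level of a gene was a small part of its PyMT-N level throughout. As a percentage of the PyMT-N mean it had a median of 0.269% and was highest for Pard6b, at 9.96%, just inside the criterion of 10 times. No count was found in any PyMT-M library for 36 genes and none alone for 42 genes, and 18 genes had no count in either. With PyMT-M cells, 29 genes had 1 to 3 counts and 35 more than 3 counts over the group, whereas alone 40 genes had 1 to 3 counts and 18 more than 3, with at most 8. The highest PyMT-M means were those of Hbegf (7.60 CPM), Pard6b (7.38 CPM) and Slco2a1 (5.55 CPM). A PyMT-M mean of at least 1 CPM was reached by 19 genes, a level that the criteria did not allow alone. The libraries kept alone also held fewer counts in all, 7520415 against 11581152 with PyMT-M cells. Nothing is therefore read from the difference in counts between these groups.

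**Figure D4:**
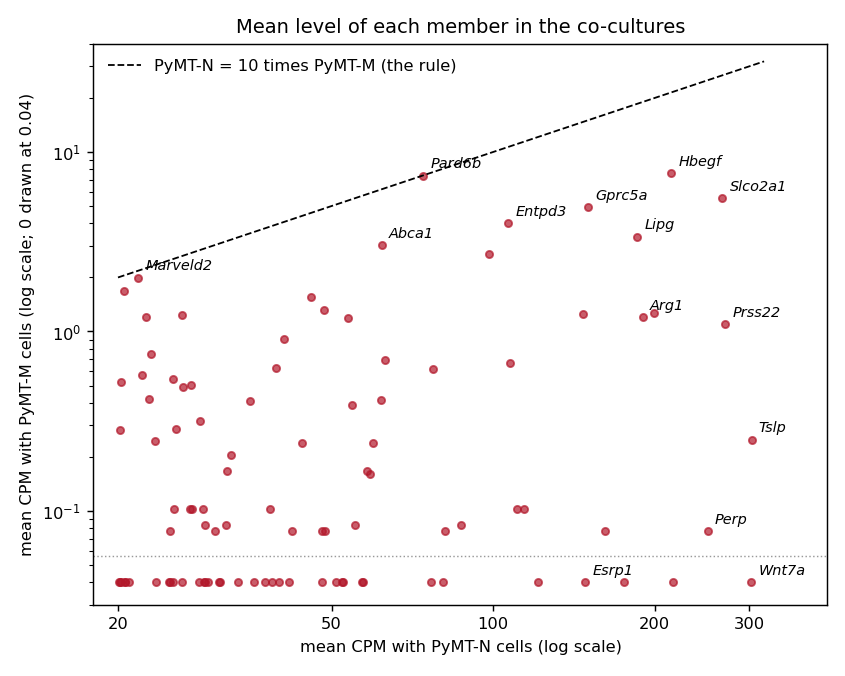
Mean CPM with PyMT-N cells (horizontal, log scale) and with PyMT-M cells (vertical, log scale) for each of the 100 genes, with genes at 0 in all PyMT-M libraries drawn at 0.04 below the dotted line. The dashed line marks a PyMT-N mean 10 times the PyMT-M mean. Genes of high PyMT-N level are found both at 0 with PyMT-M cells, such as Wnt7a and Esrp1, and nearer the line, such as Hbegf, and Pard6b touches the line.

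PyMT-M co-culture and culture alone were also compared with edgeR's quasi-likelihood test over all 12012 genes that passed the filter on low counts. All 100 genes passed this filter through their PyMT-N counts. The criteria capped the alone mean at 1 CPM and allowed a PyMT-M mean up to 0.1 of the PyMT-N mean, which leans toward calls higher with PyMT-M cells. At an adjusted p under 0.05 (Benjamini-Hochberg), 7 of the 100 genes were called, 5 higher and 2 lower, while 56.1% of all tested genes were called, 28.2% higher and 27.9% lower. Since the criteria used the levels of both groups, nothing is read from these shares, and the 7 genes are given as a description. Without alone replicate 2 the number called was 3, all of them higher, and DESeq2 called 17.

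Pard6b had 31, 37 and 19 counts with PyMT-M cells and 0 in all 3 libraries alone, at least 18.8-fold higher in CPM against the floor over the group. Hbegf had 33, 35 and 21 counts with PyMT-M cells and 0, 2 and 0 alone, a ratio of CPM of 28.9 with a 95% counting interval of 7.77 to 242. In both genes every PyMT-M library lay above every library alone. The capped alone mean and the choice of these genes by this same call favour such a gap, so nothing is read from it. Gprc5a had 22, 31 and 7 counts with PyMT-M cells and 0, 3 and 0 alone, a ratio of 13.0 (4.24 to 64.7). Slco2a1 had 3, 21 and 36 counts with PyMT-M cells and 1, 0 and 0 alone, a ratio of 39.0 (6.73 to 1564). Lipg had 22, 16 and 3 counts with PyMT-M cells and 1, 0 and 0 alone, a ratio of 26.6 (4.52 to 1077). The groups did not overlap for these 3 genes either, which their choice favours in the same way, and their PyMT-M libraries differed widely among themselves. Has2 had 0 counts in all PyMT-M libraries and 3, 4 and 1 alone, and its alone mean lay just under the limit of the criteria. Epha4, an Eph receptor, had 0 counts in all PyMT-M libraries and 3, 2 and 1 alone. Both rest on few counts, 8 and 6 over the group kept alone.

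**Figure D5:**
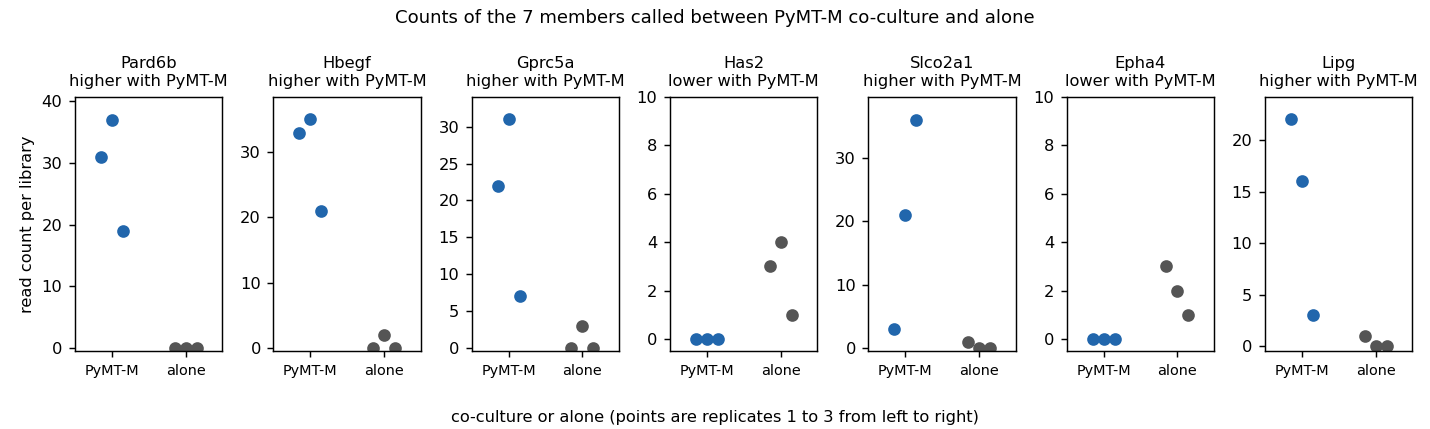
Read counts of the 7 genes called between PyMT-M co-culture and culture alone, with each library as a point (n = 3 per group) and a separate vertical axis for each gene. The 5 genes called higher reach 22 to 37 counts with PyMT-M cells and at most 3 alone, and Has2 and Epha4 are at 0 with PyMT-M cells and at 1 to 4 counts alone.

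Other genes of the same pathways were described from 10 lists, after removing the genes chosen above. The filter on low counts admits a gene through its counts in a single group. A list gene near 0 with PyMT-M cells and alone thus entered through PyMT-N cells and could only be called higher with them. The counts of calls below are therefore a description. Genes named from the lists with a p-value were picked for the smallest p in PyMT-N against PyMT-M co-culture. Their p-values in that comparison are a description too, and nothing further is read from them. The calls of each list are given first for PyMT-N against PyMT-M co-culture. There 34.6% of all 12012 tested genes were called, 19.1% higher and 15.5% lower. The median log2 fold change of all tested genes was -0.02. Scaling by library totals moved that median by -0.21 and changed the split of all calls to 1834 higher and 2703 lower, from 2297 and 1865. For PyMT-N co-culture against alone 53% of all tested genes were called, 29.4% higher and 23.6% lower, and scaling by library totals changed that split to 4315 and 2112 from 3533 and 2831. For PyMT-M against alone it changed the split to 4571 and 1913 from 3382 and 3353. The comparisons share libraries, so their counts are not independent of each other.

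Lists of epithelial structure were called higher with PyMT-N than with PyMT-M cells for most of their tested genes. Of 16 desmosome, junction and polarity genes, 14 were higher and 0 lower with PyMT-N cells, with a median log2 fold change of 3.14. Of these 16, 3 had no count in 1 of the co-cultures. Against alone, 7 were higher and 1 lower with PyMT-M cells, and all 16 were higher with PyMT-N cells. Pkp3, a plakophilin of desmosomes, had 37.7, 58.2 and 61.7 CPM with PyMT-N cells, 3.00, 4.41 and 0.918 with PyMT-M cells and 3.71, 1.26 and 4.27 alone, a log2 fold change over PyMT-M co-culture of 4.37 (SE 0.40; edgeR, adjusted p = 5.97e-07). Of 14 genes of epithelial splicing, sorting and the matriptase system, 13 were higher and 0 lower, with a median of 3.88. Against alone, 0 of these were higher and 5 lower with PyMT-M cells, and 10 higher and 0 lower with PyMT-N cells. St14, the membrane protease matriptase, had 99.9, 127 and 136 CPM with PyMT-N cells, 2.00, 0.464 and 0.306 with PyMT-M cells and 3.71, 1.26 and 0 alone (log2 fold change over PyMT-M co-culture 7.15, SE 0.45; edgeR, adjusted p = 4.20e-09). Its inhibitor Spint1 had 93.7, 79.8 and 68.7 CPM with PyMT-N cells and 2.5, 0.696 and 0.612 with PyMT-M cells (6.13, SE 0.44; edgeR, adjusted p = 2.77e-08). Of 17 epithelial transcription factors outside the 100 genes only 6 were tested, and 5 were higher and 0 lower (median 1.73). Of 16 mammary luminal and secretory genes only 6 were tested, and 4 were higher and 0 lower (median 1.6). With PyMT-M cells against alone, 2 of the transcription factors were higher and 0 lower, and 3 of the luminal genes were higher and 2 lower. Klf4, a zinc-finger factor of epithelial differentiation, had 18.3, 38.2 and 29.2 CPM with PyMT-N cells and 8.99, 12.5 and 11.6 with PyMT-M cells (1.58, SE 0.35; edgeR, adjusted p = 0.00225).

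Ligands and receptors outside the 100 genes were also mostly higher with PyMT-N cells. Of 16 tested secreted growth factors and cytokines, 12 were higher and 1 lower, with a median log2 fold change over PyMT-M co-culture of 3.07. Against alone, 8 of them were higher and 1 lower with PyMT-M cells, and 14 higher and 0 lower with PyMT-N cells. Nrg1, a ligand of ErbB receptors, had 50.7, 60.1 and 74.7 CPM with PyMT-N cells, 0, 0 and 0.918 with PyMT-M cells and 0.371, 2.52 and 9.14 alone (edgeR, PyMT-N against PyMT-M, adjusted p = 7.19e-08). Of 22 receptors of adherent cells, 14 were higher and 2 lower, with a median of 1.33. Against alone, 15 of them were higher and 2 lower with PyMT-M cells, and 18 higher and 2 lower with PyMT-N cells. Epha2 had 119, 134 and 133 CPM with PyMT-N cells, 19.7, 22.1 and 16.5 with PyMT-M cells and 2.96, 0.629 and 1.83 alone (2.93, SE 0.23; edgeR, adjusted p = 9.33e-08). Epha2, in contrast to the chosen gene Epha4, was thus counted in every PyMT-M library.

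The 4 remaining lists had smaller median log2 fold changes between the co-cultures. Of 21 actin cytoskeleton and caveolae genes, 15 were higher and 5 lower with PyMT-N cells (median 0.78), where scaling by library totals gave 10 and 5. Against alone, 14 of them were higher and 4 lower with PyMT-M cells, and 16 higher and 2 lower with PyMT-N cells. Hippo pathway targets gave 6 higher and 1 lower of 14 (median 0.69), Wnt, Notch and ephrin genes 4 and 0 of 13 (median 0.47), a share near the background, and detoxification and redox enzymes 4 and 2 of 11 (median 0.65). Ajuba, a LIM protein of the Hippo pathway, had 216, 254 and 236 CPM with PyMT-N cells, 61.9, 86.8 and 86.9 with PyMT-M cells and 0.371, 1.57 and 0.609 alone (1.80 over PyMT-M, SE 0.19; edgeR, adjusted p = 1.40e-06). Among the Hippo targets, 11 of 14 were also higher and 1 lower with PyMT-M cells than alone, and 11 were higher and 1 lower with PyMT-N cells than alone. Ankrd1, the Hippo target among the 100 genes, had 14 counts over the PyMT-M libraries and 0 alone.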

How the data were processed

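The deposited values were raw counts of reads per gene. The authors aligned reads with STAR to GRCm38 and mm10, as the submitters' processing notes name them. The counter, the annotation and the strand setting were not given in the sources used here. Per the labels' protocols, RNA came from RNeasy Micro columns and libraries from the QIAseq FX Single Cell RNA kit. Symbols were found in GENCODE M21 for 54409 of 54532 genes and not for 123. CPM is the count over the library total. The members and lists were chosen with earlier results of these data known, and roles were assigned after values were seen.

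Tests used edgeR 4.0.16 in R 4.3.3 (TMM scaling, filterByExpr with a count minimum of 10 and a total minimum of 15, quasi-likelihood with robust moderation, all 9 libraries in a single model, Benjamini-Hochberg over 12012 genes, threshold 0.05). SE is the absolute log2 fold change over the square root of F. Intervals of count ratios are exact binomial at 95%. Alternatives were DESeq2 1.42.0, other scalings, filters and criteria, a replicate block and leaving out each library. The code was tested on simulated data.

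Genes were named by rule: the 25 highest members, the 3 on each side of each criterion, the 3 most and least variable, up to 6 called in each direction with PyMT-M cells, the 3 highest with PyMT-M cells, list genes by level or p, and up to 4 promoters. Some genes that met the rule are not described. Other members named by role were chosen after their values were seen.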

Additional observations from a re-analysis of the deposited data

How the results depend on the processing

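The number of genes that met the criteria moved most with the PyMT-N level asked for: 176 at 10 CPM or more and 50 at 40 CPM or more, against 100 at 20 CPM. Other limits on the alone mean or the ratio gave 85 to 120, scaling by TMM gave 100 (94 of them shared) and by DESeq2 size factors 107 (98 shared), and leaving out each library gave 95 to 110. The summed CPM with PyMT-N cells minus that with PyMT-M cells was 6829, with 6732 and 6880 under those scalings and 6572 to 7277 without each library. Of the 100 genes, 7 were called between PyMT-M co-culture and alone, 17 with DESeq2 (11 higher, 6 lower), 10 with library totals, and 3 to 8 without each library. The cause of these differences was not tested. Calls over all genes without each library ran from 5875 to 7505 for PyMT-M against alone, 3235 to 5630 for PyMT-N against PyMT-M and 5604 to 7182 for PyMT-N against alone. Of 699 alternative values for 47 named results, 682 kept direction and side of the threshold, 15 lost the call, 1 gained it and 1 reversed: Nqo1, PyMT-N against alone, was 0.06 (adjusted p = 0.833, edgeR) and -0.025 (adjusted p = 0.943) without PyMT-N replicate 1, neither called, with a highest value of 0.14 without PyMT-N replicate 2. The ISRE share of the 65 promoters, a void comparison, was 1.54% and became 0% in a window of 200 bases before the start. Libraries with the same replicate number did not deviate together (9 pairs, correlations -0.08 to 0.03, against -0.06 to 0.07 for other pairs). With so few libraries per group this cannot exclude a pairing, and the library names do share a number across the groups. With the replicate block edgeR called 6517, 3967 and 6103 genes in the order above and 7 of the 100 genes.

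Depth limits the low groups: 1 count is 0.221 to 0.609 CPM by library, so levels of the 100 genes with PyMT-M cells or alone rest on few counts. The libraries cannot show which cells made a transcript. Counts of overlapping and near-identical genes are uncertain.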

Other observations

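Genes of other biotypes also met the same 3 criteria. They were 3: 3110039I08Rik, a processed transcript, at 33.2, 29.6 and 38.0 CPM with PyMT-N cells, 3.00, 1.63 and 4.59 with PyMT-M cells and 0 alone; Clec2f, a transcribed pseudogene, at 21.7, 43.3 and 23.2 CPM with PyMT-N cells and 0 in all other libraries; and Gm14023, a processed transcript, at 21.7, 11.7 and 30.5 CPM with PyMT-N cells, 0.499, 0.232 and 0 with PyMT-M cells and 0, 0.943 and 0 alone.

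Detoxification and redox enzymes held none of the 100 genes. Of their 11 tested genes, 2 were higher and 4 lower with PyMT-N cells than alone, and 3 were higher and 6 lower with PyMT-M cells than alone (edgeR, adjusted p under 0.05). The background over all tested genes was 53% called in the comparison of PyMT-N with alone and 56.1% in that of PyMT-M with alone. Scaled by library totals the list gave 2 higher and 2 lower with PyMT-N cells, and 3 higher and 5 lower with PyMT-M cells, so no excess of lower calls with PyMT-N cells held under that scaling. Nqo1, a quinone reductase, had 110, 92.4 and 99.0 CPM with PyMT-N cells, 43.7, 46.4 and 37.6 with PyMT-M cells and 76.3, 86.8 and 73.1 alone. Txnrd1, thioredoxin reductase 1, had 430, 391 and 357 CPM with PyMT-N cells, 174, 214 and 141 with PyMT-M cells and 258, 345 and 262 alone. Both genes were lower with PyMT-M cells than alone, with log2 fold changes of -1.40 (SE 0.21; edgeR, adjusted p = 5.66e-05) and -1.22 (SE 0.19; edgeR, adjusted p = 8.10e-05), and neither was called with PyMT-N cells against alone (edgeR, adjusted p = 0.833 and 0.515).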
